A study of Mus musculus with 107 samples.

Results

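Polycomb repressive complex 1 (PRC1) genes were followed in single mouse eggs, and this account covers 10 of them among the 21564 gene symbols of the count table: Pcgf1, Pcgf3, Pcgf5 and Pcgf6, Ring1 and Rnf2, Kdm2b and Bcor, and Scmh1 and Scml2. All 10 were found by symbol, and 9 passed the filter on low counts, Ring1 being the exception. The set was selected on the measured difference of Pcgf1 between mos mutant and wildtype eggs, where Pcgf1 is lower in the mutants. The difference between mutant and wildtype eggs is therefore described for these genes without a test.

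PRC1 is a family of ubiquitin ligases that place ubiquitin on histone H2A and help keep developmental and germline genes silent. Each complex has one catalytic subunit, RING1 or RNF2 (RING1B), and one PCGF protein, and the PCGF protein decides which other subunits join. PCGF1 assembles with KDM2B, which binds unmethylated CpG islands, and with the scaffold BCOR. PCGF3 and PCGF5 form related complexes with AUTS2, PCGF6 sits in a complex with MGA, MAX and E2F6, and canonical complexes hold BMI1 or PCGF2 with CBX proteins and SCM proteins. In growing mouse oocytes PRC1 shapes the maternal chromatin. Fully grown oocytes and eggs arrested in metaphase II are transcriptionally silent, so their mRNA is a stored pool. Whether mutant or activated eggs transcribed genes by the time of collection was not measured.

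Eggs were of 5 groups. M1, M2 and M3 eggs were mos -/- (22, 18 and 21 eggs), activated eggs were wildtype eggs exposed to strontium (17), and wildtype eggs had no such exposure (29). Mos encodes the kinase that starts the MAP kinase signalling of metaphase II eggs. The labels define neither M1, M2 and M3 nor the "growths" number of the deposited egg table, and give no detail of the Mos mutation. All females were C57BL/6J, 2 to 3 months old, and given 5 IU of pregnant mare serum gonadotropin 48 h before collection. Oocytes of every group were held in 2.5 µM milrinone, which keeps meiosis arrested, and then matured in culture in CZB medium, so none ovulated in the animal. Activated eggs spent 2 h in 10 mM strontium chloride in calcium-free medium, starting 15 to 16 h after breakdown of the germinal vesicle, the oocyte nucleus. Eggs were collected 38 to 40 h after that breakdown. Batch 1 held 4 M1, 2 M2, 3 M3 and 5 wildtype eggs and no activated egg, and batch 2 held the rest. In batch 2 the library names put mutant eggs on plates 1 and 2, activated eggs on plate 4 and wildtype eggs on plate 3, so group and plate cannot be told apart in any batch 2 difference from wildtype eggs.

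Totals ranged from 44 to 9132471 counts per egg, with 2609358 or more in every egg of batch 1 and 1551993 at most in batch 2, and 3 mutant eggs held under 10000. Because no label ties eggs to animals, the eggs of each group in each batch were added up, giving 9 sums of 5436993 to 36209306 counts. Levels are given as CPM, a gene's counts relative to the total of its library, either raw or with library totals scaled by edgeR's TMM factors. Mos itself was at 5.47 and 12.5 TMM-scaled CPM in M1 eggs of batch 1 and batch 2, 0.892 and 7.60 in M2, 1.51 and 3.40 in M3 and 4.92 in activated eggs, against 7.32 and 36.8 in wildtype eggs. Most Mos counts of M1 came from the libraries labelled M1 egg 6 (110 of 150 in batch 1) and M1 egg 21 (92 of 137 in batch 2). Mos was at 17.9 raw CPM in the library labelled M1 egg 6, against 11.2 in the wildtype egg with most Mos counts in batch 1. It was at 135.2 in the library labelled M1 egg 21, against 138.2 in that of batch 2. The M2 and M3 eggs with most Mos counts in batch 2 were at 39.3 and 29.6. Since the labels do not describe the mutation, a Mos level cannot show whether a label is wrong. All 11 oocyte markers found, zona pellucida genes among them, were detected in every sum. Together they came to 10200 (batch 1) and 16700 (batch 2) raw CPM in M1, 4760 and 13200 in M2, 5040 and 10900 in M3 and 7050 in activated eggs, against 9610 and 15500 in wildtype eggs. Marker sums of granulosa and cumulus cells ran from 110 to 323 raw CPM over all sums (14 genes), with 221 to 323 in mutant, 110 in activated and 281 to 302 in wildtype eggs, and Ptx3 at 0 in all of them. The blood sums were 3.22 to 29.3 raw CPM and the theca, stroma and endothelium sums 38.5 to 137.

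The plot of levels per kilobase shows which of these transcripts eggs hold most of. Per kilobase of exon, Pcgf1 was the most abundant member in both wildtype sums, at 348 (batch 1) and 566 (batch 2) TMM-scaled CPM per kb. Rnf2 came next in wildtype eggs, at 135.2 and 83.9, followed by Pcgf6, at 56.9 and 43.4. Scml2 was at 19.5 and 47.8, while Kdm2b (10.9 and 16.2) and Scmh1 (11.6 and 11.6) changed places between batches. Pcgf3 was at 5.49 and 3.49, Bcor at 0.684 and 1.88 and Pcgf5 at 0.354 and 0.0846, and Ring1 was not detected in wildtype eggs. In the M2 and M3 sums of batch 1 the order at the top was different: Rnf2 stood at 136 and 148 TMM-scaled CPM per kb there, above Pcgf1 at 87.6 and 90, and Pcgf6 stood at 100.4 and 75.3.

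**Figure D1:**
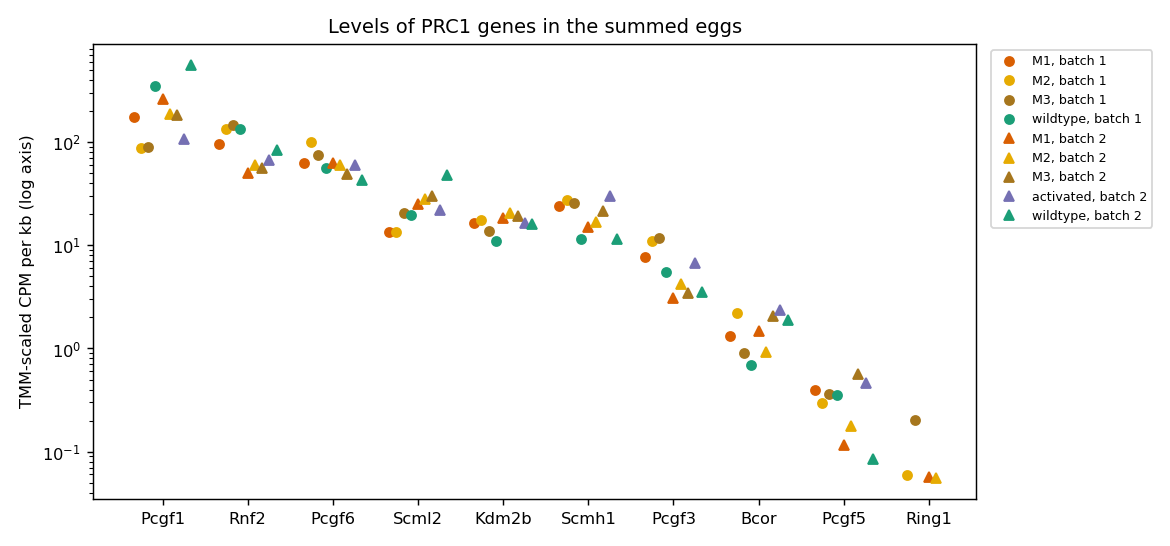
TMM-scaled CPM per kilobase of exon (log axis) of the 10 genes in the 9 summed libraries, with colours for the groups, circles for batch 1 and triangles for batch 2; a value of 0 has no symbol. Pcgf1 stands highest in wildtype eggs (348 and 566), and Ring1, where it is detected at all, lies at 0.202 or below.

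Pcgf1 lies on chromosome 6 at 83077869 to 83080855 of GRCm38, on the plus strand, and its product is the PCGF subunit of the KDM2B complex. Its annotated 3′ UTR of 98 bases is short: only 4.36% of 13106 tested genes with one had a 3′ UTR no longer, and the median was 1014 bases. The sequences around the polyadenylation signal, near the 3′ end of the annotated transcript, are shown for Pcgf1 and for the 2 members that were called higher in activated eggs, since these are the transcripts the results turn on. Each is 30 bases of GENCODE M21 (GRCm38), 5′ to 3′ on the transcript's strand, with the signal in capitals.
Pcgf1, chr6:83080823-83080852, plus strand: tttattttttgaAATAAAtgcttttaaaaa
Scmh1, chr4:120530154-120530183, plus strand: cgtttgtttataAATAAAaaccaatacaaa
Pcgf3, chr5:108506939-108506968, plus strand: agatctttctctAATAAAgtcacatttata
The signal, AATAAA or ATTAAA on the transcript's strand, was found in the last 100 bases of the 3′ UTR in 8 of 10 members (80%) and in 81.5% of 12526 tested genes with at least 100 bases of 3′ UTR. Pcgf1, with its 98 bases, and Ring1, which was not tested, are counted among the members but fall outside the rule for those genes. The cytoplasmic polyadenylation element TTTTAT was found in the same window of 1 member, Rnf2 (10.0%), and of 15.0% of those genes. Its variant TTTTAAT was found in none of the members and in 5.52% of the genes. These are matches of letters in an annotated end, and the ends used in these eggs were not measured.

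Pcgf1 was lower in every mutant sum and in activated eggs than in wildtype eggs. The 9 sums gave 293 (batch 1) and 432 (batch 2) TMM-scaled CPM in M1, 144.5 and 308.5 in M2, 148 and 301 in M3 and 179 in activated eggs, against 575 and 933.5 in wildtype eggs. The lowest wildtype sum lay above the highest of the other sums, but Pcgf1 was chosen for such a difference. The share of all genes doing so was not counted. Within batches, the log2 ratio to wildtype was -0.97 (batch 1) and -1.11 (batch 2) for M1. It was -1.99 and -1.60 for M2, -1.95 and -1.63 for M3, and -2.38 for activated eggs in batch 2. The summed oocyte markers, in raw CPM, were also below wildtype in M2 and M3 of both batches and in activated eggs. They were above wildtype in M1, the mutant group with the smallest Pcgf1 difference in both batches. The part of these markers in the Pcgf1 values was not tested.

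In single eggs, too, Pcgf1 was mostly below the wildtype median of the batch in mutant and activated eggs. In batch 1, M1 eggs held 99.8, 277, 403 and 465.5 raw CPM of Pcgf1, M2 eggs 127.4 and 153.3, and M3 eggs 83.8, 91.9 and 238, against 363, 381, 477, 710.1 and 952 in wildtype eggs. All 9 mutant eggs lay below the wildtype median and 7 below the lowest wildtype egg. The highest mutant value, 465.5, belonged to the library labelled M1 egg 6, whose Mos level is at wildtype height, and the next was 403. In batch 2, leaving out the 3 nearly empty eggs, the lowest, median and highest values were 91, 314 and 928 raw CPM in 49 mutant eggs and 105, 187 and 328 in 17 activated eggs, against 303, 780.2 and 1664 in 24 wildtype eggs. Of the activated eggs, 17 lay below the wildtype median and 15 below the lowest wildtype egg. For mutant eggs these numbers were 47 and 21 of 49.

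**Figure D2:**
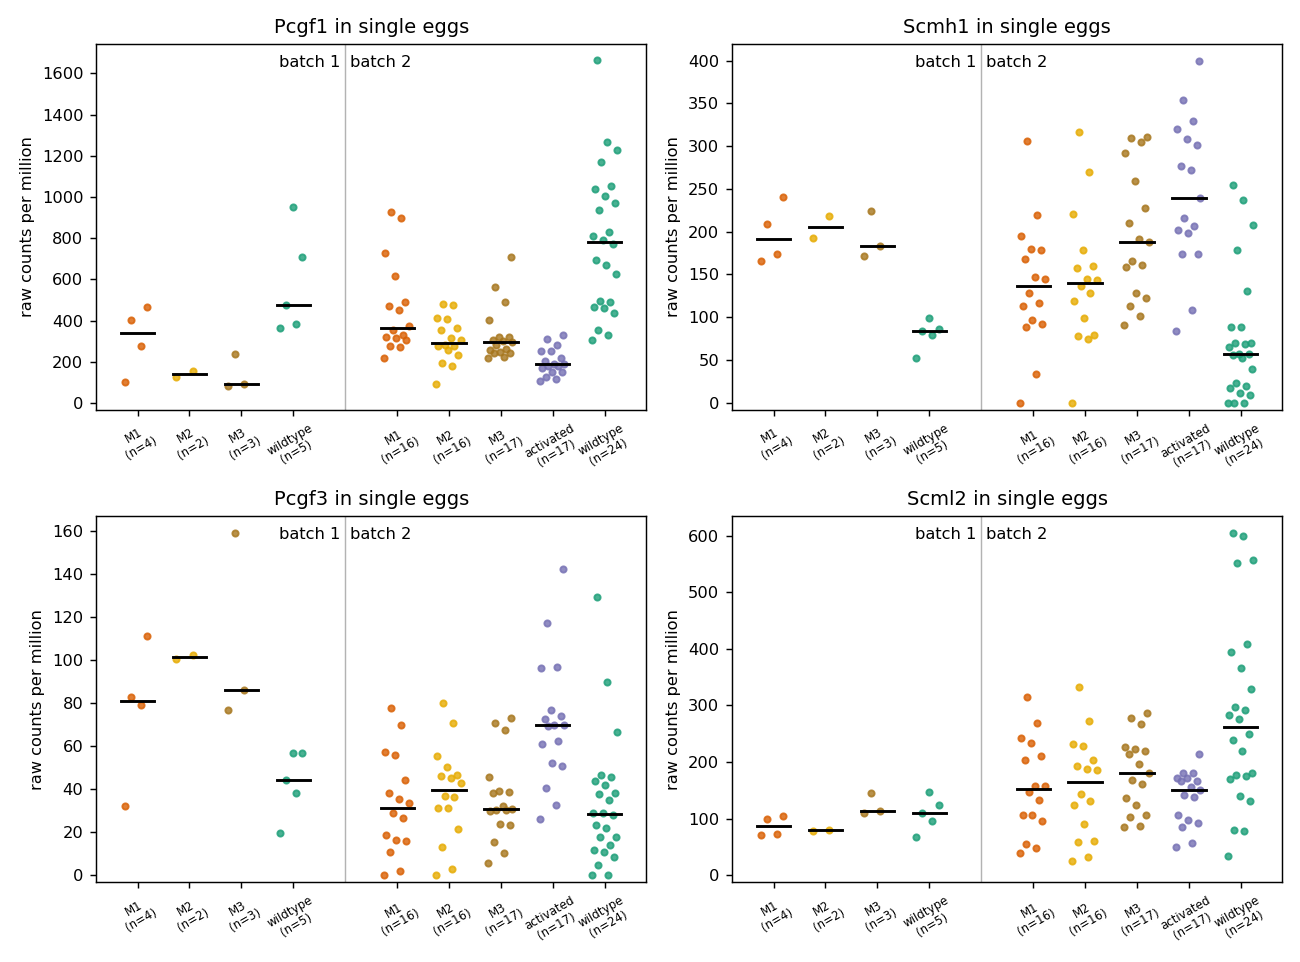
Raw CPM per egg of Pcgf1, Scmh1, Pcgf3 and Scml2, by group within batch 1 (left of the line) and batch 2 (right of it); each point is 1 egg, bars are medians over eggs, and the 3 eggs under 10000 counts are left out. Pcgf1 medians in batch 2 lie at 187 in activated and 780.2 in wildtype eggs, and the 9 mutant eggs of batch 1 all lie above the 5 wildtype eggs for Scmh1. How many of all genes separate these eggs in that way was not counted.

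Activation after strontium gave a comparison that had not chosen Pcgf1, although it uses the same wildtype sums as the one that had. High wildtype values of Pcgf1 would enlarge both differences, so its fold and p here are not independent of that choice. Activated eggs are a single sum and have no replicate check: in this test they were assumed to vary like the other groups, whose spread gives each standard error and p, so a call says that the 1 activated sum lies beyond that spread. Pcgf1 was called lower in the activated sum, with a log2 fold of -2.46 ± 0.32 (standard error; 1 activated and 2 wildtype sums), that is to 0.182 of the wildtype level (edgeR quasi-likelihood test, adjusted p = 9.43e-05). The activated sum stems from batch 2 alone, and its fold also draws on the wildtype eggs of batch 1 through the batch term. The call did not hold without that term (edgeR adjusted p = 0.124, log2 fold -2.07), and adjusted p ranged up to that value over the alternatives with a test. The mutant fold, which describes the values that led to the choice of Pcgf1, was -1.54 ± 0.17 on the log2 scale (6 mutant and 2 wildtype sums). Between mutant and activated eggs the log2 fold was 0.92 ± 0.27, higher in mutant eggs. Without the libraries labelled M1 egg 6 and M1 egg 21 the mutant fold was -1.58 and the activated fold -2.47.

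Among the mutant sums of each plate Pcgf1 was highest in M1. Over sums per plate, M1 held 299 TMM-scaled CPM in batch 1, 660.2 on the first plate of batch 2 and 397 on the second. On the same plates M2 held 145.1, 327 and 311, and M3 156, 304 and 320.5, each below M1. The value of 660.2 came from 5 eggs. Of these, M1 egg 11 and M1 egg 12 were at 928 and 896 raw CPM, and the rest at 269.5 to 330. Medians over single eggs of batch 2 lay closer together, at 365 raw CPM in M1, 292 in M2 and 295 in M3. M2 over M1 was -0.82 ± 0.20 on the log2 scale (3 sums a group; edgeR quasi-likelihood test with plate as a block, adjusted p = 0.686 over 11609 genes, unadjusted p = 0.00141), and M3 over M1 was -0.80 ± 0.20 (edgeR adjusted p = 0.498, unadjusted p = 0.00163). M3 over M2 was 0.02 ± 0.20 (edgeR adjusted p = 1.00). None of these passed in edgeR, whereas DESeq2 called the first and the second (adjusted p = 0.0237 and 0.0492), as edgeR without a count filter did the second (adjusted p = 0.0303). Leaving out the same libraries gave -0.74 for M2 over M1 and -0.72 for M3 over M1. These comparisons use mutant values, on which Pcgf1 was chosen, so its p-values here may not be independent of that choice. No other member had an unadjusted p under 0.05 in any of the 3 comparisons of mutant groups.

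The growths number divided the activated eggs, all of batch 2, into 9 eggs of number 2 and 8 of number 1. Summed, Pcgf1 was at 167 raw CPM in number 2 (exact Poisson 95% interval 158 to 176.5, counting error only), against 227 (215 to 239) in number 1. Scmh1 was at 285 (273 to 298) in number 2, against 207 (196 to 219) in number 1. Each number is 1 sum, so there is no test. The lowest and highest eggs overlapped, at 105 and 280.3 raw CPM of Pcgf1 in number 2 and 114.9 and 328 in number 1.

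PCGF proteins take the same place beside the catalytic subunit, and Pcgf1 made up most of their mRNA in wildtype eggs. Of the summed level per kilobase of the 6 PCGF genes, Pcgf1 was 58.7% (batch 1) and 68.3% (batch 2) in M1, 31.4% and 60% in M2, 34.7% and 60.1% in M3 and 42% in activated eggs, against 73.8% and 84.3% in wildtype eggs. Most of the remainder was Bmi1, a canonical PCGF gene that is no member here, and Pcgf6: in activated eggs they made up 31.6% and 23.5%, against 12.9% and 12% in wildtype eggs of batch 1 and 8.69% and 6.47% in those of batch 2. Bmi1 itself was at 324 TMM-scaled CPM in activated eggs, against 243 and 232 in wildtype eggs. Its log2 fold over wildtype was 0.54 ± 0.28 in activated and 0.13 ± 0.18 in mutant eggs, and Bmi1 was called in neither. Per egg in batch 2, the Pcgf1 share had medians of 60.5% in mutant and 41.8% in activated eggs, against 85.2% in wildtype eggs. It was over 50% in 42 of 49 mutant and 4 of 17 activated eggs, against 24 of 24 wildtype eggs. Shares within an egg do not depend on how libraries are scaled, but they do depend on exon lengths taken over all annotated isoforms.

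**Figure D3:**
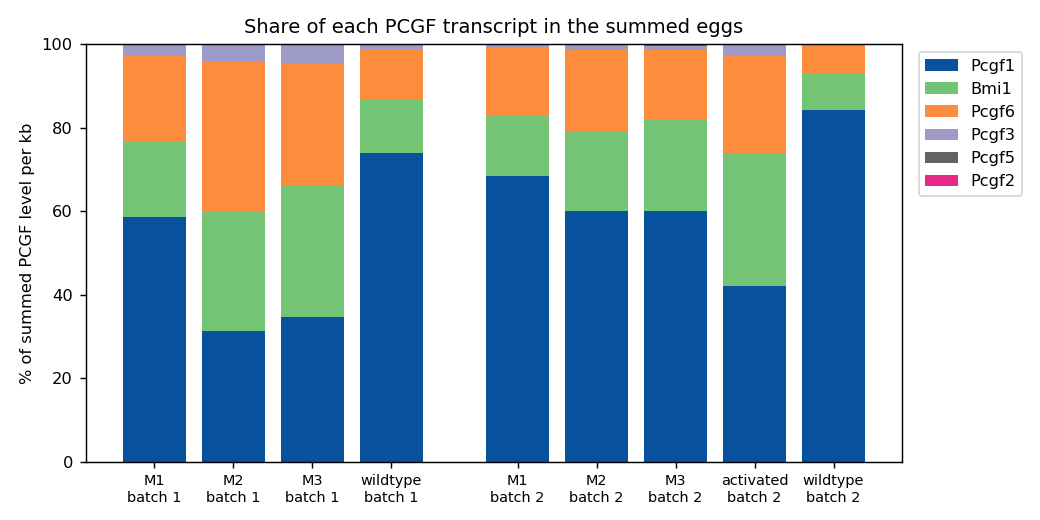
Percentage of the summed level per kilobase of the 6 PCGF genes held by each, in the 9 summed libraries, batch 1 on the left and batch 2 on the right. The Pcgf1 part is 42% in activated eggs and 73.8% and 84.3% in the 2 wildtype sums; Pcgf2 and Pcgf5 are too small to be seen.

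Pcgf3, on chromosome 5 at 108461232 to 108506976 (plus strand), was called higher in the activated sum. It was at 64.2 TMM-scaled CPM in activated eggs, against 33.4 in wildtype eggs of the same batch and 52.4 in those of batch 1. The log2 fold was 1.25 ± 0.36 (edgeR adjusted p = 0.0284), and 16 of 17 activated eggs lay above the wildtype median of batch 2. This call was lost when any of 4 sums was left out, namely the M1, M2 or wildtype sum of batch 1 (adjusted p = 0.0529, 0.0561 and 0.0865) or the M2 sum of batch 2 (adjusted p = 0.0525), and when eggs were thinned to 1 depth (edgeR adjusted p = 0.097). It was also lost with sums per plate (edgeR adjusted p = 0.159) and without the batch term (edgeR adjusted p = 0.748), and the lowest adjusted p over the alternatives was 0.00809. In mutant eggs Pcgf3 was at 73.1 (M1), 104 (M2) and 113 (M3) in batch 1, against 52.4 in wildtype eggs. In batch 2 it was at 29.7 (M1), 40.6 (M2) and 32.7 (M3), against 33.4. The mutant sums thus all exceeded wildtype in batch 1 and lay on both sides of it in batch 2 (log2 fold over both 0.44 ± 0.25). The difference between batches did not pass (-0.83 ± 0.41, edgeR adjusted p = 0.52).

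Pcgf5, the near relative of Pcgf3 on chromosome 19 at 36348309 to 36460970, was close to the limit of detection. Its sums were at 1.46 to 7.15 TMM-scaled CPM in mutant eggs and 5.87 in activated eggs, against 4.47 (batch 1) and 1.07 (batch 2, 5 counts) in wildtype eggs. In batch 2 a read was found in 20 of 49 mutant and 10 of 17 activated eggs, against 4 of 24 wildtype eggs. At an equal 60000 counts per egg these shares were 14.3% (exact 95% interval 5.94% to 27.2%) and 29.4% (10.3% to 56%), against 0% (up to 14.2%). A single egg, M3 egg 8, held 82.2% of the counts of its sum, at 169 raw CPM, and 51.4% of the Bcor counts. The log2 fold of activated over wildtype was 1.66 ± 0.92 (edgeR adjusted p = 0.278) and that of mutant over wildtype 0.58 ± 0.62, or 0.24 without M3 egg 8. Neither is stable: without the wildtype sum of batch 1 they were 2.45 for activated and 1.52 for mutant eggs, the activated fold was 0.96 without the wildtype sum of batch 2, and the mean log2 CPM over eggs of batch 2 alone gave 0.04 and -0.69. Annotated processed pseudogenes and an antisense gene overlap Pcgf5, so its reads may be shared.

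Pcgf6, whose complex keeps germline genes silent in mouse embryonic stem cells (chromosome 19, 47033617 to 47050906, minus strand), was at 316 and 318 TMM-scaled CPM in M1, 504.5 and 304 in M2, 378 and 250.1 in M3 and 306 in activated eggs, against 286 and 218 in wildtype eggs. Each of the other sums exceeded the wildtype sum of its batch. In batch 2, 43 of 49 mutant and 16 of 17 activated eggs lay above the wildtype median of 123.8 raw CPM, although the highest single egg, at 836, was wildtype and held 36.7% of the Pcgf6 counts of its sum. The log2 fold was 0.44 ± 0.19 in mutant eggs and 0.51 ± 0.29 in activated eggs, where it did not pass (edgeR adjusted p = 0.303). The mean log2 CPM over eggs of batch 2 alone, which weights eggs equally, gave larger differences of 1.23 for mutant and 1.15 for activated eggs, with no test. For every member this mean adds 0.5 to each count, so it also depends on depth. Median totals in batch 2 were 503731.5 to 756480 counts in the mutant groups and 796582 in activated eggs, against 207420 in wildtype eggs. The part of depth was not tested.

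The catalytic subunits differed from each other in level far more than between groups. Ring1, on chromosome 17 at 34020792 to 34024680, had 20 counts in all sums together, out of 151997047, and none in the activated or either wildtype sum. For these, 0 counts allow up to 0.222 raw CPM in activated eggs, against 0.0829 (batch 1) and 0.552 (batch 2) in wildtype eggs, taking 3 counts as the limit. Rnf2, on chromosome 1 at 151458004 to 151500955, was at 398 and 206 TMM-scaled CPM in M1, 560.4 and 249.7 in M2, 611 and 232 in M3 and 276 in activated eggs, against 558 and 346 in wildtype eggs. In batch 1 the mutant sums lay on both sides of wildtype and in batch 2 all lay below it. The log2 fold was -0.36 ± 0.18 in mutant and -0.16 ± 0.29 in activated eggs (the second with edgeR adjusted p = 0.791). The annotated spans of Rnf2 and Trmt1l, on the other strand, share 158 bases, and the library type does not mark strand. Overlap of their exons was not examined.

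The partners of PCGF1 did not pass in activated eggs. Kdm2b, which brings the complex to CpG islands (chromosome 5, 122870665 to 122989823), was at 178 and 198 TMM-scaled CPM in M1, 193 and 226 in M2, 150.1 and 210.5 in M3 and 180.3 in activated eggs, against 118.8 and 176.4 in wildtype eggs. Every mutant sum exceeded the wildtype sum of its batch, with a log2 fold of 0.40 ± 0.19. The log2 fold of the activated sum was 0.13 ± 0.29 (edgeR adjusted p = 0.827), whereas the mean log2 CPM over eggs of batch 2 alone gave 1.08 for activated and 1.14 for mutant eggs, with no test. Per egg in batch 2, 14 of 17 activated eggs lay above the wildtype median of 120 raw CPM, and 1 wildtype egg held 25.2% of the Kdm2b counts of its sum. The annotated spans of Kdm2b and Rnf34, on the other strand, share 627 bases, and Rnf34 had 58588 counts in all. Part of the Kdm2b counts may be Rnf34 reads, but overlap of their exons was not examined. Bcor, the scaffold of the same complex (chromosome X, 12036740 to 12160355), was at 7.90 to 19.2 TMM-scaled CPM in mutant sums of batch 1 and 7.96 to 17.8 in those of batch 2, and at 20.5 in activated eggs, against 5.93 and 16.2 in wildtype eggs. Its log2 folds were 0.34 ± 0.46 in mutant and 0.80 ± 0.66 in activated eggs (the second with edgeR adjusted p = 0.505), and the batches went opposite ways for M1 and M2. Without the wildtype sum of batch 1 the mutant fold was -0.32, and without that of batch 2 it was 1.09 and the activated fold 1.72.

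Scmh1 was called higher in the activated sum. It encodes an SCM protein, related to Drosophila Sex comb on midleg, which joins canonical PRC1, and lies on chromosome 4 at 120405281 to 120530186. Its sums held 187 and 116 TMM-scaled CPM in M1, 212 and 131 in M2, 199 and 167.5 in M3 and 230.5 in activated eggs, against 89.7 and 89.6 in wildtype eggs. All mutant and activated sums exceeded both wildtype sums, though the share of all genes doing so was not counted. The wildtype sums differed little between batches. The log2 fold in activated eggs was 1.56 ± 0.30, that is 2.95-fold (edgeR adjusted p = 0.00206). It did not pass without the batch term (edgeR adjusted p = 0.136, log2 fold 1.36), while it passed in all other alternatives that gave a p. The mean log2 CPM over eggs of batch 2 alone gave 2.38.

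In batch 1, M1 eggs held 166, 174, 209 and 240.5 raw CPM of Scmh1, M2 eggs 193 and 219, and M3 eggs 172, 184 and 224, against 52.3, 78.95, 83.8, 86.2 and 99.7 in wildtype eggs. The groups did not overlap, and the share of all genes that separate these eggs likewise was not counted. In batch 2 the lowest, median and highest values were 0, 147 and 316.5 raw CPM in 49 mutant and 83.8, 239.9 and 399 in 17 activated eggs, against 0, 57.5 and 254 in 24 wildtype eggs. There 46 of 49 mutant and 17 of 17 activated eggs lay above the wildtype median, with 8 of each above the highest wildtype egg. The mutant fold, for description, was 0.88 ± 0.21 on the log2 scale, 0.61 without the wildtype sum of batch 1, and 1.47 as the mean log2 CPM over eggs of batch 2 alone.

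Scml2, the other SCM gene (chromosome X, 161117193 to 161258213), is known in mice for its part in spermatogenesis. It was at 82 and 153 TMM-scaled CPM in M1, 81.2 and 173 in M2, 126 and 183 in M3 and 135.2 in activated eggs, against 118.5 and 291 in wildtype eggs. In batch 2 every mutant and activated sum lay below wildtype, and in batch 1 M3 lay above it. All 17 activated eggs lay below the wildtype median of 262 raw CPM. The log2 fold in activated eggs was -0.94 ± 0.32 and did not pass (edgeR adjusted p = 0.0599). DESeq2 called it (adjusted p = 0.0226). It also passed in edgeR when the M3 sum of batch 2 or the wildtype sum of batch 1 was left out (edgeR adjusted p = 0.0363 and 0.0203). Without the 9 wildtype eggs of batch 2 that held over 35% of their counts in 50 genes, the fold was -0.55 (edgeR adjusted p = 0.32). The mutant fold was -0.56 ± 0.19, or -0.24 without those eggs.

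Counted together, 2 of the 9 tested members were called higher in activated than in wildtype eggs (Scmh1 and Pcgf3), 1 was called lower (Pcgf1) and 6 were not called. Pcgf1 was chosen on a difference from these same wildtype sums, so its call is not independent of that choice. The median log2 fold over the 9 was 0.51, against 0.15 over all 13832 genes tested. Of all genes, 13% were called, 5.66% higher (783) and 7.33% lower (1014). Upper quartile scaling moved the median of all genes to 0.30 and the split to 993 higher and 841 lower, and Pcgf1, Pcgf3 and Scmh1 were called under it in the same directions. In mutant over wildtype, the comparison behind the choice, calls of members are not counted, and 9.38% of all genes were called, 5.36% higher and 4.03% lower. Leaving Pcgf1 aside, no member was called between mutant and activated eggs in edgeR, where 4.84% of all genes were (474 or 3.43% higher and 196 or 1.42% lower, or 344 and 324 with upper quartile scaling), and 2 other members had an unadjusted p under 0.05. In that comparison Scmh1 was at -0.68 ± 0.27 and Pcgf3 at -0.81 ± 0.32 on the log2 scale (edgeR adjusted p = 0.172 and 0.177). Pcgf3 passed there when the wildtype sum of batch 1 or that of batch 2 was left out (edgeR adjusted p = 0.0466 and 0.0496). No member's mutant difference was called as differing between batches, where 0.318% of genes were, and none had an unadjusted p under 0.05. Between mutant groups no member was called and hardly any gene was: 0%, 0.0517% and 0% of 11609 genes for M2 over M1, M3 over M1 and M3 over M2, with 718, 914 and 334 genes at an unadjusted p under 0.05. DESeq2 called 226, 147 and 143 genes there.

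**Figure D4:**
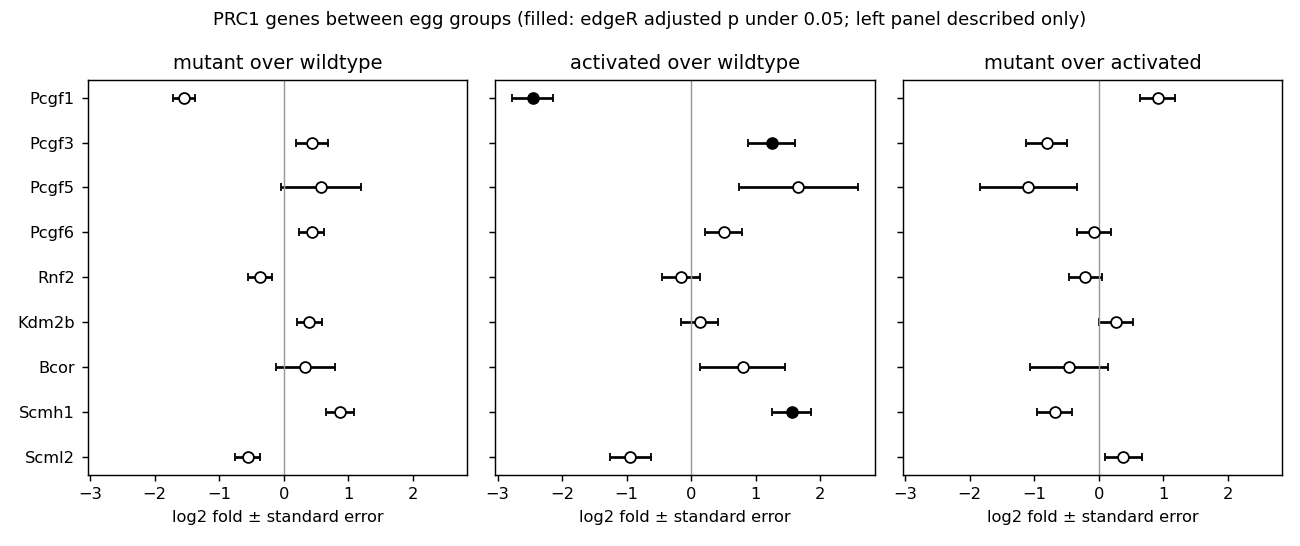
Log2 folds with standard errors (bars) of the 9 tested members between mutant and wildtype, activated and wildtype, and mutant and activated eggs; filled symbols passed an edgeR adjusted p of 0.05, and the left panel, which led to the choice of Pcgf1, is described only. Pcgf1 (-2.46), Pcgf3 (1.25) and Scmh1 (1.56) are filled in the activated panel, where the call of Pcgf1 is not independent of its choice.

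Other genes of the Polycomb system are described by lists. Of 34 listed symbols of further PRC1 subunits, 29 were tested. In activated over wildtype eggs 1 was called higher, 1 lower and 27 were not called, with a median log2 fold of 0.19, where 5.66% of all genes were called higher and 7.33% lower and the median was 0.15. Bcorl1, a BCOR relative, was called lower, at 47.7 TMM-scaled CPM in activated eggs, against 132.7 and 144.5 in wildtype eggs (log2 fold -1.38 ± 0.35, edgeR adjusted p = 0.0138). Hdac2, a histone deacetylase, was called higher, at 76.0 in activated eggs, against 27.2 in wildtype eggs of batch 2 and 74.04 in those of batch 1 (1.32 ± 0.39, edgeR adjusted p = 0.0322). In mutant over wildtype eggs none rose and 2 of 29 fell, where 5.36% and 4.03% of all genes did: Cbx2, a chromodomain subunit of canonical PRC1, to 320 to 649 in the 6 mutant sums, against 807 and 995.5 in wildtype eggs (-1.08 ± 0.20, edgeR adjusted p = 0.00288), and Bcorl1 to 53.3 to 119.4 (-0.88 ± 0.21, edgeR adjusted p = 0.0114).

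All 13 listed genes of PRC2, the complex that places the methyl mark on histone H3 that canonical PRC1 binds, were tested. In activated over wildtype eggs 3 were called lower, none higher and 10 were not called, where 7.33% of all genes were called lower and 5.66% higher. The median log2 fold was -0.48 over the list, against 0.15 over all genes. Jarid2, a cofactor that recruits PRC2, was at 194 TMM-scaled CPM in activated eggs, against 366 and 536 in wildtype eggs (-1.33 ± 0.30, edgeR adjusted p = 0.0063). Mtf2, a Polycomb-like cofactor, was at 19.8 in activated eggs, against 55.4 and 45.97 in wildtype eggs (-1.29 ± 0.39, edgeR adjusted p = 0.0352). Ezhip, an inhibitor of PRC2 that is abundant in germ cells, was at 2177 in activated eggs, against 2306 and 4154 in wildtype eggs (-0.90 ± 0.28, edgeR adjusted p = 0.0392). In mutant over wildtype eggs 1 of 13 fell, where 4.03% of all genes did, and 12 were not called: Jarid2 was at 220 to 341 in the mutant sums (-0.72 ± 0.18, edgeR adjusted p = 0.0149).

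Among 15 tested genes of enzymes that remove ubiquitin from H2A or methyl groups placed by PRC2, and of their cofactors, 1 was called lower and 14 were not called in activated eggs, where 7.33% of all genes were called lower, and none was called in mutant over wildtype eggs, where 9.38% of all genes were. Kdm6b, a demethylase, was at 92.8 TMM-scaled CPM in activated eggs, against 255 and 338 in wildtype eggs (-1.67 ± 0.32, edgeR adjusted p = 0.00175). It was higher in mutant than in activated eggs, at 184 to 249 in the 6 mutant sums (1.22 ± 0.29, edgeR adjusted p = 0.0191), the only gene of these 3 lists called in that comparison.

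The pattern of Pcgf1 over the 9 sums was set beside those of 5864 well-expressed genes. The most alike, by Pearson's r of log2 CPM over these 9 sums, were Selenok, an endoplasmic reticulum selenoprotein (r = 0.976, Spearman's rho = 0.883), Rala, a small GTPase (0.954 and 0.883), Lpcat1, a phospholipid acyltransferase (0.949 and 0.967), Lin37, a subunit of the DREAM complex (0.948 and 0.917), and Syvn1, an endoplasmic reticulum ubiquitin ligase (0.947 and 0.933). Selenok was at 27.9 to 53.2 TMM-scaled CPM in mutant sums and 28.1 in activated eggs, against 52.8 and 74.4 in wildtype eggs. Among the members, Scmh1 had an r of -0.929 with Pcgf1, Pcgf6 -0.782, Pcgf3 -0.751 and Scml2 0.632, and Kdm2b and Bcor -0.178 and -0.191. These values describe 9 sums that share groups and batches, and carry no test.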

How the data were processed

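Single eggs were sequenced with Smart-seq2, which copies polyadenylated transcripts and does not mark strand. The authors deposited raw read counts by gene symbol, with no scaling. Per the submitters' processing notes, the tools were STAR and HTSeq and the build GRCm38 (mm10). No source used here gives versions, the annotation or whether strand was used. The deposited egg table gave the growths number and plate of each egg.

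Counts were summed over eggs of a group and batch. The 9 sums were modelled by group plus batch in edgeR 4.0.16 under R 4.3.3, with TMM scaling, its expression filter (minimum count 10) and robust quasi-likelihood F tests on 3 residual degrees of freedom, p-values being adjusted over 13832 genes (Benjamini-Hochberg) and called at 0.05. The p-values measure only the spread between these sums, which may be technical. The single activated sum was assumed to vary like the other groups. For M1, M2 and M3 the sums were instead made by plate, 9 in all, and plates were read from the library names. The standard error is the size of the log2 fold over the root of its F value. Values are relative to library totals and need not be amounts per egg. Levels per egg, raw CPM, left out eggs under 10000 counts. Where eggs or sums of a member lay apart between groups, the share of all genes doing so was not counted. Intervals and limits cover counting error only. Positions, lengths and 3′ ends came from GENCODE M21 (GRCm38).

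The members, the gene lists and the rule for named genes were chosen with earlier results of these data known. That rule took the 10 members, Mos, up to 3 called genes per direction of each list by p, and the 5 genes of at least 4 mean log2 CPM most like Pcgf1. Mutant over wildtype served to choose Pcgf1, so no p is given for members there, nor for Pcgf1 between mutant and activated eggs. On simulated counts, 64% of genes changed 2-fold and 99% of those changed 4-fold were recovered for mutant over wildtype, and 15% and 76% for activated over wildtype (100 genes of each size, 13795 genes). The changed genes had a mean log2 CPM of at least 4, and no batch difference was simulated. These rates therefore do not cover members as scarce as Pcgf5 and Bcor. Alternatives were other scalings, no filter, DESeq2 1.42.0, thinned eggs, fits without batch or plate, sums by plate, pooled mutant eggs, doubtful eggs left out, each sum or plate left out, and mean log2 CPM over eggs.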

Additional observations from a re-analysis of the deposited data

How the results depend on the processing

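Pcgf1 and Scmh1 kept their direction in all 22 alternatives for mutant over wildtype. The called members of activated over wildtype did so in all 21 there (the single activated sum could not be left out). Leaving Pcgf1 aside, the main fits called no member between mutant and activated eggs (21 alternatives) or between mutant groups (10). Folds of members not called did change sign. This happened 4 times in mutant over wildtype, 2 in activated over wildtype and 8 in mutant over activated. It happened 12 times in M2 over M1, 7 in M3 over M1 and 13 in M3 over M2. The log2 fold of Pcgf1 ran from -1.68 to -1.09 in mutant over wildtype and from -2.59 to -1.91 in activated over wildtype, and that of Scmh1 from 0.61 to 1.47 and from 1.36 to 2.38.

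For mutant over wildtype, leaving out the batch term gave 51 called genes and sums per plate 409, against 1298, and 755 to 1262 when a sum was left out. Calls of members are not counted there, since that comparison chose Pcgf1. For activated over wildtype, the same settings gave 196 and 666 called genes, against 1797, and 1433 to 2106 with a sum left out. Members called higher there were 1 in thinned eggs and with sums per plate, 0 without a batch term, and 1 to 2 with a sum left out. Members called lower were 2 without a filter, in DESeq2, in thinned eggs and with pooled mutant eggs (Scml2 joined Pcgf1), 0 without a batch term, and 1 to 2 with a sum left out. For mutant over activated, 1099 genes were called without a filter, 1039 in DESeq2, 35 without a batch term and 161 with sums per plate, against 670, and 380 to 1119 with a sum left out. Leaving Pcgf1 aside, members called lower were 0 to 1 with a sum left out (Pcgf3).

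For mutant groups, no filter and DESeq2 called 45 and 226 genes for M2 over M1, 130 and 147 for M3 over M1, and 44 and 143 for M3 over M2. DESeq2 called 1 member lower for M2 over M1, and for M3 over M1 both no filter and DESeq2 called 1 (Pcgf1). M3 over M1 had 0 calls without the plate term, with the plates of the deposited table and without the libraries labelled M1 egg 6 and M1 egg 21, and 0 to 10 with a plate left out; for M3 over M2 the range was 0 to 3. The causes were not tested. Leaving out the libraries labelled M1 egg 6 and M1 egg 21 or M3 egg 8 was chosen after the data were seen. No paired analysis was possible because sums over eggs carry no replicate number to pair on; plate was the block between mutant groups. The share of mutant eggs of batch 2 with a Bcor read was 32.7% at 60000 counts and 51.1% at 100000. Depth limits Ring1, Pcgf5 and Bcor most.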
